A study of Mus musculus with 6 samples.

Results

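The T cell costimulatory and checkpoint receptors described here are 8 genes, Ctla4, Tnfrsf4, Tnfrsf9, Tnfrsf18, Icos, Pdcd1, Cd28 and Tigit, of the 32285 genes counted in a single-cell RNA sequencing study of immune cells of the mouse kidney. They were chosen by name for their role, and each name matched 1 gene of the feature list. Live cells carrying CD45, the surface protein shared by white blood cells, had been sorted from collagenase- and DNase-digested kidneys of 8-week-old C57BL/6J mice, and were sequenced as droplet libraries with antibody tags. The groups were 3 libraries from mice with acute kidney injury after rhabdomyolysis, the breakdown of skeletal muscle that releases myoglobin into the blood (labelled RM-AKI), and 3 libraries from control mice. How rhabdomyolysis was brought about, the time after it and the sex of the mice are not given in the sources used here. Whether the libraries of a group came from different animals is not stated in the labels, and p-values here reflect variation among libraries that may be technical only.

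A T cell responds fully when its antigen receptor and a costimulatory receptor are engaged together. CD28 gives the first costimulatory signal on meeting CD80 or CD86 on a dendritic cell or other presenting cell, and ICOS, its close relative, binds ICOSL. The tumour necrosis factor receptors OX40 (Tnfrsf4), 4-1BB (Tnfrsf9) and GITR (Tnfrsf18) act after the first signal, bind TRAF adaptor proteins and feed into NF-kB. The checkpoint receptors restrain the response: CTLA-4 competes with CD28 for CD80 and CD86, PD-1 (Pdcd1) recruits phosphatases, and TIGIT binds the poliovirus receptor. Foxp3+ regulatory T cells carry several of these receptors at rest, and group 2 innate lymphoid cells, which have no antigen receptor, carry some of them. A level measured over all T cells can therefore move because the subsets shift or because cells of a subset change.

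The genes lie on 3 chromosomes of the GRCm38.p6 assembly, with positions taken from RefSeq. On chromosome 1, Cd28 (ENSMUSG00000026012, chr1:60746388-60773359), Ctla4 (ENSMUSG00000026011, chr1:60909025-60915832) and Icos (ENSMUSG00000026009, chr1:60960773-61000322) are neighbours, with 136 kb between Cd28 and Ctla4 and 44.9 kb between Ctla4 and Icos. Pdcd1 (ENSMUSG00000026285, chr1:94038305-94052553) lies farther along the same chromosome. On chromosome 4, Tnfrsf4 (ENSMUSG00000029075, chr4:156013595-156016613) and Tnfrsf18 (ENSMUSG00000041954, chr4:156026322-156028894) are 9.71 kb apart, and Tnfrsf9 (ENSMUSG00000028965, chr4:150920155-150946104) lies upstream of both. Tigit (ENSMUSG00000071552, chr16:43626137-43665125) is on chromosome 16. RefSeq promoters were matched for 6 of the 8 genes, and those of the 4 genes that rose in T cells after rhabdomyolysis are shown because these genes moved together. Each is the 250 bases before an annotated start, read 5′ to 3′ on the strand of the gene, with capitals marking matches, on either strand, to the NFAT core TGGAAA, to the AP-1 site TGANTCA and to the NF-kB site. Tnfrsf9 has 2 annotated starts, the second of them inside the gene. The annotated start of Tnfrsf4 also lies inside the gene as placed above, so its window runs past the gene's first base at 156013595.
Ctla4, plus strand, chr1:60908775-60909024: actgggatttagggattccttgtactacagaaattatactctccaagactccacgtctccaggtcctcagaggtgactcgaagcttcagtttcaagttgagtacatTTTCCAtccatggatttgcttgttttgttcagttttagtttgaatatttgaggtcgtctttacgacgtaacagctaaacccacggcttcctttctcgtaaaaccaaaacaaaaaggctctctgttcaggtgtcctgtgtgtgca
Tnfrsf9, first start, plus strand, chr4:150919905-150920154: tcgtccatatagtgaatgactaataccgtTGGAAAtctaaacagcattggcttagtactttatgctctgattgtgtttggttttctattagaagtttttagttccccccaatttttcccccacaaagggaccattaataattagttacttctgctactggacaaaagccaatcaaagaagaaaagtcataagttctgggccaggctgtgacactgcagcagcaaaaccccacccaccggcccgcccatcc
Tnfrsf9, second start, plus strand, chr4:150927749-150927998: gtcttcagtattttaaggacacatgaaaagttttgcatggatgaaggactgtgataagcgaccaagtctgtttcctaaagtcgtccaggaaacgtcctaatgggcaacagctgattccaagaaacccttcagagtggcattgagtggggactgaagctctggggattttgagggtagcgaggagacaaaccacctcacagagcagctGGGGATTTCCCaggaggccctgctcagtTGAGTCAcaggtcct
Tnfrsf4, plus strand, chr4:156013445-156013694: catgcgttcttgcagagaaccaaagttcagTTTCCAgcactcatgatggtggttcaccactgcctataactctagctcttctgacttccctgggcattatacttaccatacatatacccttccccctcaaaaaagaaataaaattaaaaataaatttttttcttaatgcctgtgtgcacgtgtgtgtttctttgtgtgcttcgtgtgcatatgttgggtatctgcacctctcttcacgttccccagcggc
Pdcd1, minus strand, chr1:94052554-94052803: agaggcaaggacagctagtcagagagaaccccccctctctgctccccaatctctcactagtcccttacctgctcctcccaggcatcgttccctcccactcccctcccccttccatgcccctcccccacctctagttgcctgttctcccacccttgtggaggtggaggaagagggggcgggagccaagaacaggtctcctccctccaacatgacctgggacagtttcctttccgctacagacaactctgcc
The windows of Ctla4, Tnfrsf4 and the first Tnfrsf9 start each held 1 NFAT match, and that of Pdcd1 held no match. The window of the second Tnfrsf9 start held 1 AP-1 match and 2 NF-kB matches that overlap each other on opposite strands. Of the 32536 RefSeq promoter windows of 250 bases, 18.6% held an NFAT match, 6.73% an AP-1 match and 7.28% an NF-kB match, so these matches describe the letters and do not show a bound site.

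Cells were called from the deposited counts of unique molecular identifiers (UMIs, each tagging 1 captured transcript), and the 6 libraries held 10816727 to 22656666 gene UMIs. Called cells numbered 1718, 2281 and 4011 in the rhabdomyolysis libraries, against 3994, 3486 and 3167 in the control libraries. Of the called cells 37 barcodes were shared by 2 or more libraries. Clusters poor in the nuclear transcript Malat1, which no cell type was read from, took 30 to 54.5% of the cells in rhabdomyolysis libraries and 11.5 to 21.8% in control libraries. Clusters named T cell-like from fixed markers made up 5.01, 4.87 and 3.12% of the cells after rhabdomyolysis, against 18.2, 17 and 19.7% in controls, shares that the CD45 sort and the Malat1-poor cells can set. They held 322 cells of rhabdomyolysis libraries and 1944 of control libraries. All 17 T cell markers were detected in them, and their summed level was 51.1 to 77.4 UMIs per 10000 in rhabdomyolysis libraries and 109 to 114 in control libraries, with 6 of the 17 falling and 0 rising. Macrophage markers in T cells summed to 5.2 to 30.2 per 10000 in rhabdomyolysis libraries and 19.4 to 27.9 in controls, and markers of migratory dendritic cells to 2.57 to 3.15 after rhabdomyolysis and 1.4 to 1.65 in controls, with Fscn1 and Ccl22 at 0. The median T cell held 2834 UMIs in rhabdomyolysis libraries and 3686.5 in controls. The part of these differences in the results below was not tested.

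Across all T cells, 4 of the 7 receptor genes that could be tested rose after rhabdomyolysis: the checkpoint receptors Ctla4 and Pdcd1 and the tumour necrosis factor receptors Tnfrsf9 and Tnfrsf4. Cd28, the receptor of the first costimulatory signal, averaged 2.84 ± 0.487 UMIs per 10000 after rhabdomyolysis and 2.78 ± 0.123 in controls (SD, n = 3 each). Of the 8073 genes tested in T cells, 461 rose and 351 fell, or 10.1% called in either direction and 5.71% called higher. The test was edgeR's quasi-likelihood test on counts summed per library, called at a Benjamini-Hochberg adjusted p under 0.05. The median log2 change was 1.71 over the 7 tested genes and -0.00426 over all genes. When the library total replaced TMM scaling, the split was 325 up and 622 down and the median of all genes was -0.18.

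Ctla4 gave 16, 80 and 48 UMIs in the T cells of the rhabdomyolysis libraries, or 0.721, 2.37 and 1.13 per 10000, against 66, 37 and 56 UMIs, or 0.229, 0.163 and 0.241 per 10000, in the control libraries. The groups did not overlap, and rhabdomyolysis library 2 stood highest. At least 1 Ctla4 UMI was found in 11.6, 25.2 and 16.8% of T cells after rhabdomyolysis and in 5.23, 3.88 and 5.13% of control T cells. In B cells, which should lack Ctla4, the shares were 0% in each rhabdomyolysis library and 0.239, 0 and 0.424% in control libraries, at median depths of 2300 UMIs after rhabdomyolysis and 2994 in controls. The free RNA of near-empty droplets held 2, 8 and 3 Ctla4 UMIs in rhabdomyolysis libraries and 4, 7 and 9 in control libraries. With each T cell thinned to 1000 UMIs, the mean shares were 10.0% after rhabdomyolysis and 2.02% in controls. The mean level was 1.41 ± 0.857 per 10000 after rhabdomyolysis and 0.211 ± 0.0421 in controls (SD, n = 3 each), a ratio of 6.66. The log2 change was 2.95 ± 0.31 (SE, edgeR adjusted p = 5.7e-06).

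Tnfrsf9, which marks recently activated T cells, gave 14, 33 and 41 UMIs after rhabdomyolysis, or 0.63, 0.976 and 0.964 per 10000, against 24, 29 and 16 UMIs, or 0.0832, 0.128 and 0.069 per 10000, in controls. Every rhabdomyolysis library lay above every control library, by 9.18 times in the mean. Its log2 change of 3.43 ± 0.28 was the highest of the 7 (edgeR adjusted p = 3.9e-07). Tnfrsf4 gave 69, 37 and 83 UMIs after rhabdomyolysis, or 3.11, 1.09 and 1.95 per 10000, against 154, 42 and 98 UMIs, or 0.534, 0.185 and 0.422 per 10000, in controls. Its groups did not overlap either, although the spread within each was wide, at 2.05 ± 1.01 per 10000 after rhabdomyolysis and 0.38 ± 0.178 in controls (SD, n = 3 each). The log2 change of Tnfrsf4 was 2.50 ± 0.32 (edgeR adjusted p = 6.0e-05).

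Pdcd1, which encodes the PD-1 receptor, gave 20, 22 and 42 UMIs after rhabdomyolysis, or 0.901, 0.651 and 0.988 per 10000, against 83, 72 and 64 UMIs, or 0.288, 0.317 and 0.276 per 10000, in controls. The libraries of each group lay close together and the groups did not overlap. The ratio of the means was 2.88 and the log2 change 1.71 ± 0.21 (edgeR adjusted p = 4.3e-05). Each of these 4 calls was kept in all 16 alternative settings tried, with log2 changes of 2.33 to 3.53 for Ctla4, 3.23 to 3.83 for Tnfrsf9, 2.07 to 2.85 for Tnfrsf4 and 1.31 to 2.02 for Pdcd1. Among the genes tested in T cells, 8.94% had all rhabdomyolysis libraries above all control libraries.

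Tnfrsf18, Icos and Cd28 did not pass the test, and their groups overlapped. Tnfrsf18, which encodes GITR, stood at 3.38, 0.74 and 3.74 per 10000 after rhabdomyolysis, against 2.14, 1.62 and 2.03 in controls. Rhabdomyolysis library 2 was the lowest of the 6 and the other 2 rhabdomyolysis libraries were the highest. Its log2 change was 0.60 ± 0.31 (95% interval -0.00485 to 1.21, edgeR adjusted p = 0.261), and without rhabdomyolysis library 2 it was 1.02 (adjusted p = 4.76e-06). Icos stood at 0.675, 1.66 and 1.67 per 10000 after rhabdomyolysis, against 1.03, 0.965 and 1.09 in controls, with library 1 the low one. Its log2 change was 0.64 ± 0.21 (95% interval 0.221 to 1.05, edgeR adjusted p = 0.0687), which passed in 6 of the 16 alternatives, among them 0.85 without rhabdomyolysis library 1 (adjusted p = 0.00641). Cd28, with 52, 112 and 122 UMIs after rhabdomyolysis and 761, 650 and 658 in controls, changed by 0.23 ± 0.16 (95% interval -0.0961 to 0.547, edgeR adjusted p = 0.461). Tigit was nearly undetected, with 1, 1 and 0 UMIs after rhabdomyolysis and 3, 1 and 3 in controls, and was not tested.

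**Figure D1:**
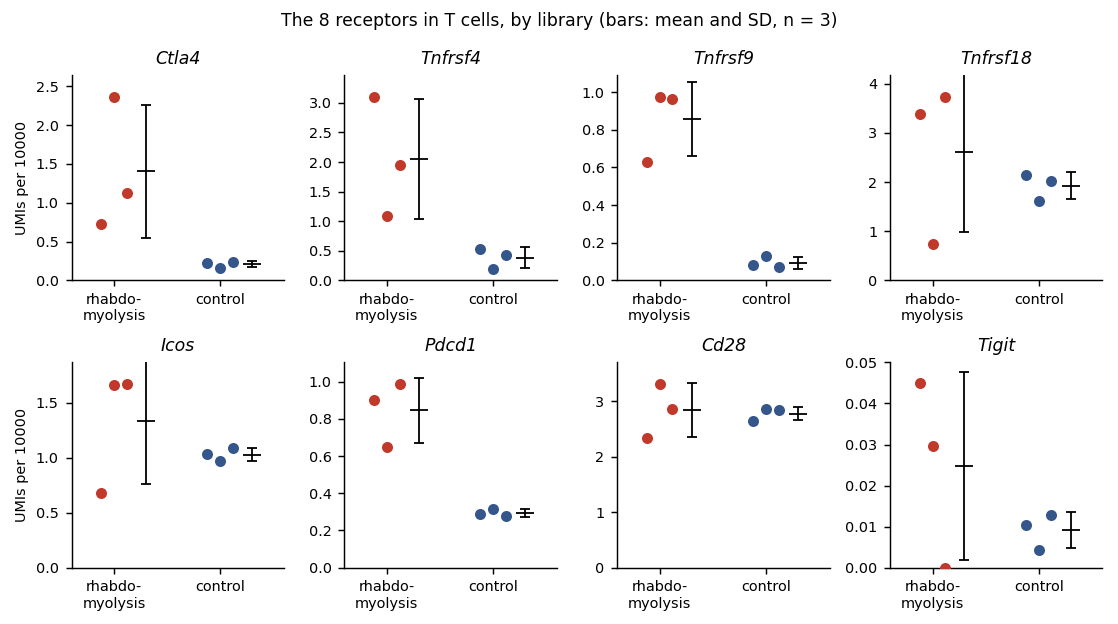
Levels of the 8 receptor genes in T cells, in UMIs per 10000, with 1 panel per gene, 1 dot per library and the mean and SD of each group (n = 3 libraries each), rhabdomyolysis left of control. The groups stand apart for Ctla4, Tnfrsf9, Tnfrsf4 and Pdcd1, and overlap for Tnfrsf18, Icos and Cd28; each gene has its own vertical scale.

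The make-up of the T cells differed between the groups, and this bears on the levels above. Cells were sorted by their own transcripts into Foxp3 T cells (1 or more Foxp3 UMI) and, among the rest, CD4, CD8, double-negative (neither transcript seen) and both-positive T cells. Foxp3 T cells made up 4.65, 8.11 and 3.2% of T cells after rhabdomyolysis, against 2.61, 1.69 and 2.4% in controls, a log2 change of 1.22 ± 0.43 (SE, edgeR on cell numbers, adjusted p = 0.0275 over 5 subsets). They were only 4, 9 and 4 cells after rhabdomyolysis and 19, 10 and 15 cells in controls. CD4 T cells fell to 8.14, 9.01 and 11.2% after rhabdomyolysis, against 16.8, 13.3 and 22.0% in controls, a log2 change of -0.85 ± 0.30 (edgeR adjusted p = 0.0275). CD8 T cells made up 28.7 ± 4.82% after rhabdomyolysis and 25 ± 7.46% in controls (SD, n = 3 each), and double-negative T cells 56.5 ± 6.85% after rhabdomyolysis and 54.8 ± 2.8% in controls, without a call. The calls on the Foxp3 and CD4 shares were lost under several alternatives, among them finer clusters for the Foxp3 share (0.675, adjusted p = 0.179) and antibody tags in place of transcripts for the CD4 share (-0.315, adjusted p = 0.257). The call on the Foxp3 share was kept without rhabdomyolysis library 3 alone of the 6 fits that each left out a library, with 0.748 (adjusted p = 0.344) when library 2 was left out. The call on the CD4 share was lost without rhabdomyolysis library 1 or 2 and without control library 1 or 3. Of these fits, the smallest change was -0.654 (adjusted p = 0.0743), without control library 3. The highest adjusted p was 0.177, without rhabdomyolysis library 2 (-0.811).

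A further difference cut across these subsets. The cluster led by the naive T cell genes Dapl1, Lef1, Tcf7, Il7r and Ccr7 held 30.2, 30.6 and 24% of T cells after rhabdomyolysis, against 10.0, 8.6 and 9.13% in controls (exact permutation p = 0.1, the smallest that 3 against 3 libraries can give). It held 32.3% of CD4 T cells, 33% of CD8 T cells and 25.6% of double-negative T cells after rhabdomyolysis, against 11.2, 13 and 7.13% in controls. Leaving the cluster out was among the 16 alternatives above, and the receptor levels within it are not given here. Beyond that, its part in the receptor results was not tested.

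With each library's subset levels weighted by the same control make-up, the receptor levels moved little from the plain T cell levels. This make-up was the subsets' mean shares of UMIs in controls, not of cells, with both-positive T cells left out. Ctla4 averaged 1.40 ± 0.832 per 10000 after rhabdomyolysis and 0.208 ± 0.0174 in controls, a ratio of 6.74 with the make-up held fixed. Tnfrsf9 averaged 0.771 ± 0.328 after rhabdomyolysis and 0.092 ± 0.0365 in controls, a ratio of 8.39. Tnfrsf4 averaged 1.97 ± 0.955 after rhabdomyolysis and 0.367 ± 0.163 in controls, a ratio of 5.36, and Pdcd1 0.793 ± 0.16 after rhabdomyolysis and 0.291 ± 0.0121 in controls, a ratio of 2.73 (SD, n = 3 each). These 4 genes and Cd28 (3.09 ± 0.0651 after rhabdomyolysis and 2.78 ± 0.144 in controls) had groups that did not overlap, each with an exact permutation p of 0.1, the smallest possible, and 0.16 after adjustment over the 8 genes. Tnfrsf18 and Icos overlapped here too. The share of all genes without overlap was not computed for weighted levels. At plain T cell levels, 8.94% of the genes tested had all rhabdomyolysis libraries above all control libraries.

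The difference in mean level was then divided into a term from the subsets' shares of UMIs and a term from the levels within them. A shift in make-up inside a subset counts as levels here and was not separated out. The naive cluster, for example, held 25.6% of double-negative T cells after rhabdomyolysis and 7.13% in controls. Cells whose Cd4 or Foxp3 transcript was not captured can also lie in that subset. By antibody tags, 724 of its 1246 cells carried CD4 alone and 471 neither CD4 nor CD8a. The terms of double-negative and CD4 T cells below thus follow captured transcripts and do not separate 2 kinds of T cell. For Ctla4 the difference of 1.15 per 10000 was 0.0092 from shares and 1.14 from levels, of which double-negative T cells gave 0.51, CD4 T cells 0.371, Foxp3 T cells 0.132 and CD8 T cells 0.126. Leaving out each library in turn, the shares term of Ctla4 ran from -0.0407 without control library 2 to 0.0695 without rhabdomyolysis library 3, and the levels term from 0.708 without rhabdomyolysis library 2 to 1.53 without rhabdomyolysis library 1. For Tnfrsf4 the 1.81 was 0.132 from shares and 1.68 from levels, and Foxp3 T cells gave the most of the levels term at 0.724 although they were the fewest of these 4 subsets. Its shares term ran from -0.0394 without rhabdomyolysis library 2 to 0.282 without rhabdomyolysis library 3, and its levels term from 1.28 to 2.10. For Tnfrsf9 the 0.81 was 0.072 from shares and 0.738 from levels, with 0.353 in Foxp3, 0.231 in double-negative, 0.154 in CD4 and -0.000304 in CD8 T cells. Its shares term ran from 0.0248 without rhabdomyolysis library 2 to 0.114 without control library 3, and its levels term from 0.592 to 0.899. Pdcd1 had another layout, in which 0.541 of the 0.584 came from levels, with 0.335 in CD8 and 0.2 in double-negative T cells, 0.014 in Foxp3 T cells and -0.00736 in CD4 T cells. Its shares term ran from 0.013 without control library 3 to 0.065 without control library 2, and its levels term from 0.471 to 0.637. For Cd28 the term from shares was -0.139 and that from levels 0.275, and under the marker gate both were negative, -0.235 from shares and -0.121 from levels.

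**Figure D2:**
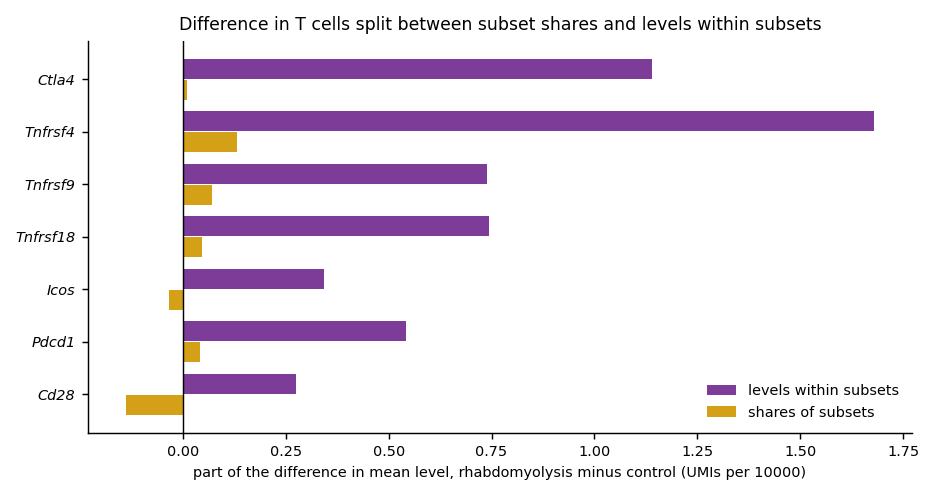
Difference in mean level between rhabdomyolysis and control T cells, in UMIs per 10000, for each receptor gene. One bar is the term from levels within subsets, which also takes in shifts of make-up inside a subset. The other is the term from the subsets' shares of UMIs. For Ctla4, Tnfrsf4, Tnfrsf9 and Pdcd1 the term from levels within subsets is by far the longer bar.

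To take the Foxp3 gate out of the level, the T cells without a Foxp3 UMI were also fitted as 1 population of 305 rhabdomyolysis and 1900 control cells. Of the 8005 genes tested there 9.18% were called and 5.23% called higher, and the same 4 receptor genes rose. Ctla4 stood at 0.656, 1.78 and 0.937 per 10000 after rhabdomyolysis, against 0.132, 0.121 and 0.129 in controls. Its log2 change of 3.35 ± 0.30 compares with 2.95 in all T cells (edgeR adjusted p = 2.6e-06). Tnfrsf9 changed by 2.89 ± 0.43 (adjusted p = 3.1e-04), Tnfrsf4 by 2.21 ± 0.35 (adjusted p = 4.9e-04) and Pdcd1 by 1.76 ± 0.21 (adjusted p = 4.7e-05). For Tnfrsf9, 1 of the 3 control libraries reached the level of the filter on low counts. Icos passed there without rhabdomyolysis library 1 (0.868, adjusted p = 0.00653) and Tnfrsf18 without library 2 (0.957, adjusted p = 1.15e-04). A Foxp3 cell whose Foxp3 transcript was not captured stays in this population, so it holds fewer regulatory T cells rather than none.

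Foxp3 T cells carried more of several receptors than CD4 T cells in the control libraries. Over the 3 control libraries, Foxp3 T cells exceeded CD4 T cells in Ctla4 by 4.61 ± 0.35 on the log2 scale, in Tnfrsf4 by 3.14 ± 0.31, in Tnfrsf18 by 1.86 ± 0.20 and in Icos by 1.57 ± 0.23 (edgeR with the library as a block, adjusted p = 3.7e-05, 2.9e-04, 4.2e-04 and 0.0071). In that comparison 1.79% of 2908 genes were called, and Cd28 was not, at -0.41 ± 0.21 (adjusted p = 0.485). Ctla4 stood at 4.08, 2.94 and 3.78 per 10000 in control Foxp3 T cells, against 0.0622 to 0.194 in control CD4 T cells. Libraries reaching the filter on low counts were not counted for this fit. Ctla4 may thus have entered it through the Foxp3 T cells alone. CTLA-4, OX40, GITR and ICOS are receptors that regulatory T cells are known to carry at rest.

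Within Foxp3 T cells, Tnfrsf9 rose further after rhabdomyolysis. It gave 8, 20 and 15 UMIs in the 4, 9 and 4 cells of the rhabdomyolysis libraries, or 9.14, 8.79 and 16.5 per 10000, against 12, 1 and 4 UMIs, or 1.69, 0.294 and 0.56 per 10000, in controls. The groups did not overlap, though the share of all genes without overlap was not computed in Foxp3 T cells. The log2 change of Tnfrsf9 was 3.41 ± 0.50 (edgeR adjusted p = 0.0014), kept in all 15 alternatives. It entered the test through the rhabdomyolysis libraries, since 0 of the 3 controls reached the level that the filter on low counts asks for there, 3.52 per 10000, and with no filter the change of Tnfrsf9 in Foxp3 T cells was 2.83 ± 0.53 (adjusted p = 5.81e-05). No rhabdomyolysis library held the planned 10 cells, so this fit used every library with at least 4 cells, a minimum set after the cell numbers were seen. It tested 359 genes, of which 11.7% were called and 5.57% called higher. Tnfrsf4 stood at 38.8, 9.67 and 32.0 per 10000 after rhabdomyolysis, against 8.16, 2.94 and 3.92 in controls. Rhabdomyolysis library 2 lay just above control library 1. The log2 change of 2.24 ± 0.51 (edgeR adjusted p = 0.0208) was lost in 5 of 15 alternatives, among them without rhabdomyolysis library 1 (1.84, adjusted p = 0.0798), without control library 2 (1.90, adjusted p = 0.0833) and without control library 3 (2.0, adjusted p = 0.0516). Ctla4 overlapped between the groups, at 2.28, 10.6 and 9.92 per 10000 after rhabdomyolysis and 4.08, 2.94 and 3.78 in controls, and did not pass (log2 change 1.11 ± 0.41, edgeR adjusted p = 0.0894). Tnfrsf18 (0.36 ± 0.62) and Icos (-0.33) were not called.

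In CD4 T cells without a Foxp3 UMI, Ctla4, Tnfrsf9 and Tnfrsf4 rose, 3 of the 7 receptor genes tested, where 2.53% of 4466 genes were called and 1.61% called higher. The fit compared rhabdomyolysis libraries 2 and 3 with the 3 controls, since library 1 had 7 such cells and was left out. Ctla4 gave 0, 15 and 22 UMIs in the 7, 10 and 14 cells after rhabdomyolysis, or 0, 4.36 and 3.95 per 10000, against 7, 2 and 10 UMIs in 122, 79 and 137 control cells, or 0.144, 0.0622 and 0.194 per 10000. The log2 change was 4.90 ± 0.44 (edgeR adjusted p = 5.9e-08). For Ctla4 and Tnfrsf9 0 of the 3 control libraries reached the level that the filter on low counts asks for (0.311 per 10000), so both entered the test through the rhabdomyolysis libraries, and their calls lend the count of 3 no weight. Fitted with no filter, Ctla4 in CD4 T cells changed by 4.62 (adjusted p = 1.36e-20) and Tnfrsf9 in CD4 T cells by 4.36 (adjusted p = 6.87e-08). The library left out had no Ctla4 or Tnfrsf9 UMI. With it included, both genes were below the filter on low counts and Tnfrsf4 kept its call (2.98 ± 0.44, adjusted p = 1.28e-04). Tnfrsf9 gave 0, 7 and 8 UMIs after rhabdomyolysis, against 3, 1 and 5 in controls (4.64 ± 0.76, edgeR adjusted p = 4.7e-04).

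Tnfrsf4 in CD4 T cells stood at 3.61, 2.62 and 5.56 per 10000 after rhabdomyolysis, against 0.782, 0.124 and 0.697 in controls. The share of all genes without overlap was not computed in these cells. For Tnfrsf4, all 3 rhabdomyolysis libraries lay above the controls, also the one left out of the fit. Its log2 change of 3.02 ± 0.47 (edgeR adjusted p = 3.3e-04) lost its call without rhabdomyolysis library 3 (1.93, adjusted p = 0.133) and without control library 1 (3.35, adjusted p = 0.0537). Icos (1.07 ± 0.37, adjusted p = 0.129), Tnfrsf18 (1.02 ± 0.41, adjusted p = 0.21), Pdcd1 (0.39 ± 0.81, adjusted p = 0.902) and Cd28 (-0.20 ± 0.32) did not pass. Without rhabdomyolysis library 2, Tnfrsf18 passed at 1.58 (adjusted p = 2.6e-04).

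In CD8 T cells the gene called higher was Pdcd1, 1 of the 4 receptor genes tested, where 6.67% of 3461 genes were called and 3.7% called higher. It gave 13, 14 and 20 UMIs in 20, 36 and 38 cells after rhabdomyolysis, or 2.1, 1.15 and 1.27 per 10000, against 28, 36 and 18 UMIs in 180, 193 and 110 control cells, or 0.345, 0.456 and 0.427 per 10000. The groups did not overlap, and the lowest rhabdomyolysis library was above the highest control by more than the range of the controls. All rhabdomyolysis libraries stood above all control libraries in 7.11% of the genes tested there. The log2 change was 1.94 ± 0.30 (edgeR adjusted p = 3.7e-04), kept in all 16 alternatives. PD-1 is a receptor that CD8 T cells are known to gain on activation and to keep under lasting stimulation. Icos (1.11 ± 0.43, adjusted p = 0.142), Tnfrsf18 (0.78 ± 0.31, adjusted p = 0.145) and Cd28 (0.36 ± 0.25, adjusted p = 0.483) did not pass, although Tnfrsf18 did without rhabdomyolysis library 2 (1.18, adjusted p = 0.00913). Ctla4 gave 1, 11 and 6 UMIs in CD8 T cells after rhabdomyolysis and 4, 7 and 3 in controls, too few for the test. Per 10000 UMIs its mean was 0.483 ± 0.383 after rhabdomyolysis and 0.0697 ± 0.0198 in controls (SD, n = 3 each). These groups did not overlap, so an untested rise of Ctla4 in CD8 T cells is not excluded. Tnfrsf4 gave 0, 1 and 3 UMIs after rhabdomyolysis and 4, 4 and 0 in controls, with means of 0.091 and 0.0333 per 10000. Tnfrsf9 gave 0, 1 and 1 after rhabdomyolysis and 4, 6 and 1 in controls, with means of 0.0487 and 0.0497 per 10000. Both overlapped between the groups.

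The different layouts of CD4 and CD8 T cells were set against each other in 1 model with the library as a block. None of the receptor genes passed for a difference between the CD8 and the CD4 change, where 0.266% of 5644 genes did. Of the receptor genes 2 had an unadjusted p under 0.05, among 410 genes at that level. They were Ctla4 (-1.66, edgeR adjusted p = 0.661, unadjusted p = 0.0391) and Tnfrsf9 (-3.99, edgeR adjusted p = 0.381, unadjusted p = 0.0045), each with the smaller change in CD8 T cells. Pdcd1 differed by 1.5 ± 0.78 (adjusted p = 0.689). That Pdcd1 passed in CD8 and Ctla4 in CD4 T cells is thus not shown to be a difference between the subsets.

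Double-negative T cells, the largest subset with 180 rhabdomyolysis and 1066 control cells, repeated the 4 rises seen in all T cells, where 8.49% of 6171 genes were called and 5.04% called higher. Ctla4 gave 13, 30 and 11 UMIs after rhabdomyolysis, or 0.964, 1.88 and 0.542 per 10000, against 25, 18 and 16 UMIs, or 0.169, 0.162 and 0.123 per 10000, in controls (3.0 ± 0.39, edgeR adjusted p = 6.7e-05). The groups did not overlap, with all rhabdomyolysis libraries above the controls as in 8.78% of genes, and the call was kept in all 17 alternatives. The other 3 calls leaned on single libraries, and for Tnfrsf9 1 of the 3 control libraries reached the level of the filter. Tnfrsf9 (2.90 ± 0.61, adjusted p = 0.0050) was lost without rhabdomyolysis library 3 (2.27, adjusted p = 0.147), and so was Pdcd1 (1.78 ± 0.36, adjusted p = 0.0037), which then stood at 1.14 (adjusted p = 0.169). Tnfrsf4 (2.13 ± 0.42, adjusted p = 0.0030) overlapped between the groups and was lost without rhabdomyolysis library 1 (1.42, adjusted p = 0.0838). All 3 were lost with finer clusters, which took many control cells but few rhabdomyolysis cells out of the T cell-like class. Control double-negative T cells then numbered 141, 122 and 190, from 399, 308 and 359. Those of rhabdomyolysis libraries numbered 50, 54 and 64, from 55, 56 and 69. Icos (0.62, adjusted p = 0.108), Tnfrsf18 (0.45, adjusted p = 0.451) and Cd28 (0.24) did not pass, though Icos did without rhabdomyolysis library 1 (0.81, adjusted p = 0.0279) and Tnfrsf18 without library 2 (0.825, adjusted p = 0.0141).

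Most T cells of the double-negative gate carried the CD4 surface tag. Of the 1246 T cells in that gate, 724 carried the CD4 surface tag, 25 the CD8a tag, 26 both and 471 neither. With subsets set by tags, a choice made after the data were seen, CD4 T cells had higher Ctla4 (3.39, edgeR adjusted p = 7.1e-07), Tnfrsf9 (3.14, adjusted p = 0.0027), Tnfrsf4 (2.54, adjusted p = 1.7e-05) and Icos (0.85, adjusted p = 0.0455), where 7.01% of genes were called and 4.37% called higher. Pdcd1 did not pass in them (0.82, adjusted p = 0.437). CD8-tagged T cells had higher Pdcd1 (1.90, adjusted p = 2.8e-04), where 7.91% of genes were called and 4.45% called higher. Tag double-negative T cells had higher Ctla4 (4.15, adjusted p = 7.5e-04) and Tnfrsf9 (3.07, adjusted p = 0.0033), where 7.89% were called and 5.0% called higher. How many control libraries reached the level of the filter on low counts was not computed for subsets set by tags. Genes low in controls, such as Ctla4 and Tnfrsf9, may have entered these tests through the rhabdomyolysis libraries, so the number of calls lends no weight.

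**Figure D3:**
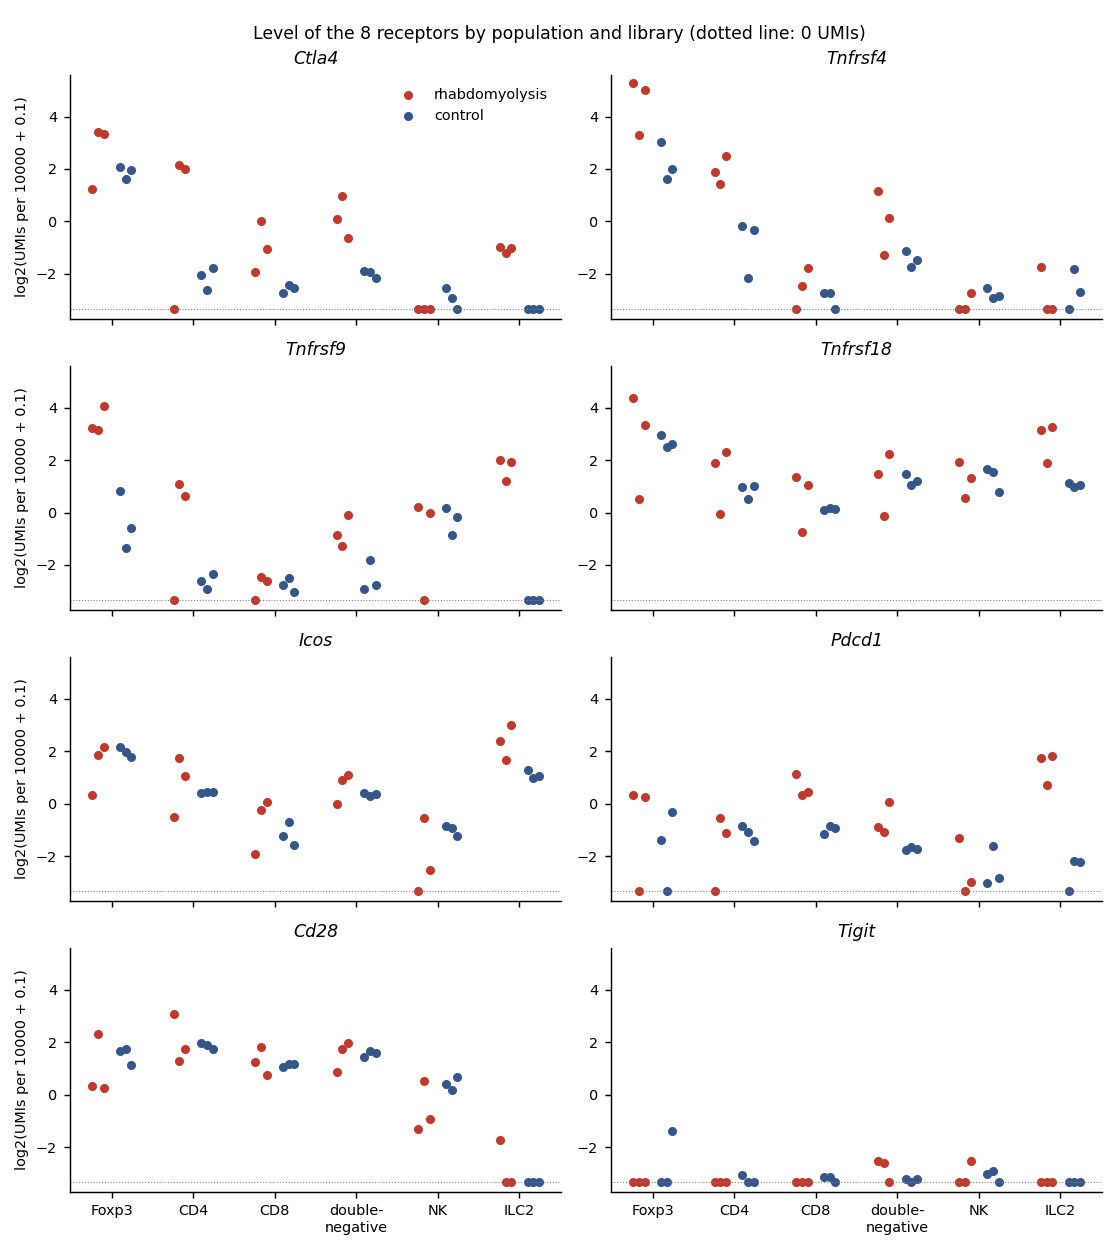
Level of each receptor gene, as log2 of UMIs per 10000 plus 0.1, in Foxp3, CD4, CD8 and double-negative T cells, NK cells and group 2 innate lymphoid cells, with 1 dot per library and rhabdomyolysis left of control; dots on the dotted line are libraries with 0 UMIs. Tnfrsf9 and Pdcd1 in innate lymphoid cells show the widest gap between the groups.

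NK cells, the cytotoxic lymphocytes without an antigen receptor, showed no call for any of the 4 receptor genes tested, where 3.62% of 3839 genes were called. DESeq2 called 0 of the 2 receptor genes to which it gave an adjusted p. Cd28, whose product NK cells carry at a low level, gave 2, 7 and 17 UMIs in 28, 23 and 102 cells after rhabdomyolysis, or 0.299, 1.35 and 0.425 per 10000, against 51, 32 and 36 UMIs in 113, 92 and 72 control cells, or 1.23, 1.04 and 1.47 per 10000. Rhabdomyolysis library 2 lay among the controls and the other 2 below them, and the log2 change was -1.09 ± 0.37 (edgeR adjusted p = 0.11, unadjusted p = 0.0083). Without that library it was -1.41 (adjusted p = 0.0145). Icos gave 0, 3 and 3 UMIs after rhabdomyolysis and 19, 13 and 8 in controls (-1.60 ± 0.65, edgeR adjusted p = 0.2, unadjusted p = 0.024).

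Tnfrsf9 in NK cells gave 7, 0 and 35 UMIs after rhabdomyolysis, or 1.05, 0 and 0.875 per 10000, against 43, 14 and 19 UMIs, or 1.04, 0.456 and 0.778 per 10000, in controls (0.19 ± 0.40, edgeR adjusted p = 0.865). The 0 of library 2 allows up to 0.578 per 10000, a floor that covers counting error only. Tnfrsf18 overlapped as well (0.13 ± 0.29, adjusted p = 0.874). Ctla4, Tnfrsf4, Pdcd1 and Tigit had at most 7 UMIs in any library of NK cells. Most NK cells of rhabdomyolysis libraries were in a cluster led by Gzma, Klra4 and Klra8, with 22, 21 and 91 cells there and 6, 2 and 11 in a cluster led by Ncr1 and Xcl1. Control NK cells numbered 49, 35 and 32 in the first and 64, 57 and 40 in the second. Tested as an interaction, the NK change was lower than the T cell change for Tnfrsf9 (-3.29 ± 0.48, edgeR adjusted p = 2.0e-05), Icos (-2.36 ± 0.58, adjusted p = 0.0227) and Cd28 (-1.29 ± 0.35, adjusted p = 0.0418), where 1.47% of 5315 genes were called. The Tnfrsf9 difference was kept in 8 of 8 alternatives. That of Icos was lost without rhabdomyolysis library 3 (-0.899, adjusted p = 0.818) and without control library 1 (-2.18, adjusted p = 0.107), and that of Cd28 was kept in 2 of 8, at -0.788 without rhabdomyolysis library 3 (adjusted p = 0.694). It was also lost without rhabdomyolysis library 1 and without control library 1 or 3.

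Group 2 innate lymphoid cells, tissue-resident lymphocytes that release type 2 cytokines, held the widest change in Tnfrsf9 and Pdcd1. They were added after the values of the 8 genes in them had been seen, so their tests describe a population picked for its values. Its leading genes included Calca, Il1rl1, Gata3 and Il17rb, and it held 18, 23 and 18 cells of rhabdomyolysis libraries and 60, 42 and 42 of control libraries. Their 12 markers were all detected and summed to 228 to 526 per 10000 in rhabdomyolysis libraries and 16.3 to 22.5 in control libraries, with 3 of the 8 tested rising. T cell markers in them summed to 4.5 to 7.68 after rhabdomyolysis and 16.1 to 16.8 in controls, and the part of these differences in the receptor results was not tested. Tnfrsf9 gave 19, 20 and 28 UMIs after rhabdomyolysis, or 3.86, 2.2 and 3.71 per 10000, against 0 in each control library. The control libraries together allow up to 0.052 per 10000 (3 counts over the group), so the level was at least 59.6-fold higher after rhabdomyolysis (edgeR adjusted p = 1.3e-05).

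Pdcd1 in these cells gave 16, 14 and 26 UMIs after rhabdomyolysis, against 0, 2 and 2 in controls, and 55.6, 39.1 and 61.1% of the cells held at least 1 Pdcd1 UMI after rhabdomyolysis, against 0, 2.38 and 4.76% in controls. B cells held no Pdcd1 UMI in any library. The levels of 2.74 ± 1.05 per 10000 after rhabdomyolysis and 0.0782 ± 0.0678 in controls (SD, n = 3 each) did not overlap, and the log2 change was 5.21 ± 0.55 (edgeR adjusted p = 3.6e-05). PD-1 is known as a brake on activated innate lymphoid cells of this group. Tnfrsf18 stood at 8.73, 3.62 and 9.4 per 10000 after rhabdomyolysis, against 2.08, 1.88 and 1.98 in controls (1.97 ± 0.30, edgeR adjusted p = 8.7e-04). Icos, a receptor these cells use for survival, stood at 5.08, 3.07 and 7.81 per 10000 after rhabdomyolysis, against 2.3, 1.88 and 1.98 in controls (1.49 ± 0.29, edgeR adjusted p = 0.0046). All 4 receptor genes tested were called, where 13.1% of 1876 genes were and 7.94% were called higher, and each call was kept in all 13 alternatives. In 10.2% of the genes tested, all rhabdomyolysis libraries stood above all control libraries, as for these 4. Tnfrsf9 and Pdcd1 had passed the filter on low counts through the rhabdomyolysis libraries, with 0 of the 3 controls at its level, so the count of 4 lends no weight.

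Ctla4 in innate lymphoid cells gave 2, 3 and 3 UMIs after rhabdomyolysis and 0 in each control library, at least 7.13-fold higher. Cd28 and Tnfrsf4 had at most 3 UMIs in any library and Tigit 0. The markers of group 2 innate lymphoid cells summed to 2.07 to 3.52 per 10000 in rhabdomyolysis T cells and 2.11 to 2.21 in control T cells. In the interaction with T cells, the innate lymphoid change was larger for Pdcd1 (3.70 ± 0.61, edgeR adjusted p = 0.0016) and Tnfrsf18 (1.51 ± 0.27, adjusted p = 0.0032), each kept in 8 of 8 alternatives, where 3.5% of 3834 genes were called. It was also larger for Tnfrsf9 (adjusted p = 0.0109, and 0.0511 without control library 1), while Icos did not pass (0.90 ± 0.33, adjusted p = 0.173, and 1.38 with an adjusted p of 0.00958 without rhabdomyolysis library 2). B cells, which should lack most of these receptors, held 0 UMIs of Tnfrsf9, Icos, Pdcd1 and Tigit in all 6 libraries. They held 0 UMIs of Ctla4 after rhabdomyolysis and 2 in controls, 2 of Tnfrsf4 after rhabdomyolysis and 6 in controls, 4 of Tnfrsf18 after rhabdomyolysis and 54 in controls, and 0 of Cd28 after rhabdomyolysis and 10 in controls.

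**Figure D4:**
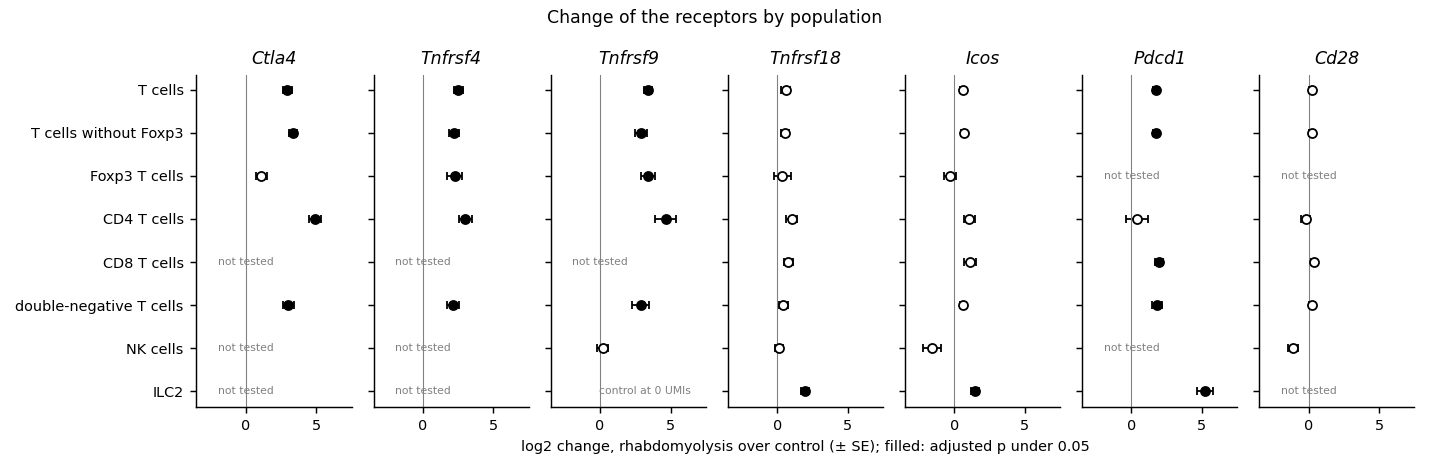
Log2 change, rhabdomyolysis over control, with its standard error, for 7 receptor genes in T cells, their subsets, NK cells and group 2 innate lymphoid cells; filled points passed an edgeR adjusted p under 0.05. Ctla4, Tnfrsf9 and Tnfrsf4 are filled in T cells and CD4 T cells, Pdcd1 in T cells and CD8 T cells, and no point is filled in NK cells; the words "control at 0 UMIs" replace a point where control libraries had none.

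The genes acting below these receptors were read from a list of 30 signalling genes, of which 28 were tested in T cells, 6 rose and 1 fell, with a median log2 change of 0.104 against -0.00426 over all genes, of which 10.1% were called and 5.71% called higher. Nfkbia, the NF-kB inhibitor that NF-kB itself induces, stood at 14.7, 13.2 and 13.4 per 10000 after rhabdomyolysis, against 2.25, 2.61 and 2.48 in controls, with a gap far wider than either group's spread (2.67 ± 0.15, edgeR adjusted p = 3.9e-09). Nfkb2, a subunit of the non-canonical branch, changed by 2.20 (adjusted p = 7.7e-06). Traf1, the adaptor that binds 4-1BB and OX40, stood at 2.43, 2.78 and 3.58 per 10000 after rhabdomyolysis, against 1.38, 1.24 and 1.27 in controls (1.38, adjusted p = 2.2e-05). Myc rose by 1.74 (adjusted p = 9.2e-04), but Myc in T cells outside the naive cluster stood at 1.05 and was not called (adjusted p = 0.169). Nfkbia was also called higher in CD4 (3.54), CD8 (1.81), double-negative (2.65) and Foxp3 T cells (2.36), in innate lymphoid cells (2.01) and in NK cells (2.22), where no receptor gene was called.

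Other receptors of both kinds did not move as 1 group. Of 14 other costimulatory receptors, 13 were tested in T cells, 2 rose and 5 fell, where 10.1% of all genes tested were called and 5.71% called higher, with a median of -0.447. Tnfrsf25, the death receptor that costimulates regulatory T cells, rose by 1.32 and Slamf6 by 1.24, while Cd44 changed by -1.10 and the DNAM-1 gene Cd226 by -1.08. Of 14 other checkpoint receptors, 10 were tested, 2 rose and 4 fell, against the same 10.1% of all genes, with a median of -1.05. Nt5e, the CD73 enzyme that makes adenosine, rose by 2.22 and Cd101 by 1.64, while Lair1 changed by -2.18 and Cd160 by -1.46. Cd101 in T cells was not called without rhabdomyolysis library 3 (1.32, adjusted p = 0.129), nor Lair1 in T cells without any 1 of the rhabdomyolysis libraries (-1.63 without library 2, adjusted p = 0.172) or without the naive cluster (adjusted p = 0.102). The call on Tnfrsf25 in T cells was lost under the marker gate (1.09, adjusted p = 0.152) and that on Cd226 in T cells with finer clusters (-0.724, adjusted p = 0.0533). Without the naive cluster the calls on Cd44 in T cells (-0.766, adjusted p = 0.0682) and on Cd160 in T cells (-1.27, adjusted p = 0.0617) were lost.

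Among 20 regulatory T cell genes, 12 were tested, 5 rose and 1 fell, where 10.1% of all genes tested in T cells were called and 5.71% called higher, a background that also stands beside the naive and tissue lists. Ikzf4 (3.05), Il2ra (1.87), Foxp3 itself (1.85, edgeR adjusted p = 0.0208) and Capg (1.16) were the largest. Without rhabdomyolysis library 3, Il2ra in T cells was not called (1.48, adjusted p = 0.118), and Capg in T cells was not called without rhabdomyolysis library 1 or 3 or control library 2 (0.867 to 0.995). Foxp3 stood at 0.225, 0.769 and 0.118 per 10000 of all T cells after rhabdomyolysis, against 0.135, 0.0837 and 0.121 in controls. Rhabdomyolysis library 2 was far above the rest and library 3 lay among the controls, and without library 2 the change was 0.565 and not called, nor was it with finer clusters. All 12 naive T cell genes were tested, 9 rose and 0 fell, led by the interleukin-7 receptor Il7r (2.40), Igfbp4 (2.27), Klf2 (2.11) and Ccr7 (1.83). All 20 genes of activated and tissue T cells were tested, 3 rose and 13 fell, with a median of -1.15. The chemokine receptor Cxcr6 stood at 2.7, 0.976 and 2.38 per 10000 after rhabdomyolysis, against 11.1, 10.6 and 9.39 in controls (-2.21), while the cytokine Il17a (4.35) and Crem (1.92) rose. In T cell counts summed per library, Ctla4, Tnfrsf9, Tnfrsf4 and Pdcd1 thus rose, these naive genes were higher and most of these tissue genes lower. Such sums do not show whether the same cells carried both changes.

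The ligands were read in the presenting cells. In conventional dendritic cells 8 of 15 ligand genes were tested, 4 rose and 0 fell, with a median of 0.603, where 18.8% of 7808 genes were called and 9.5% called higher. This class joined the type 1, type 2 and migratory dendritic clusters. The type 2 cluster gave 48 of 77, 111 of 138 and 106 of 221 cells after rhabdomyolysis. In controls it gave 153 of 285, 158 of 304 and 95 of 296. Tnfsf9 was among its leading genes, and the part of this make-up in the ligand results was not tested. Tnfsf9, the 4-1BB ligand, stood at 3.6, 2.27 and 1.16 per 10000 after rhabdomyolysis, against 0.37, 0.663 and 0.621 in controls (2.06 ± 0.34, edgeR adjusted p = 9.1e-04). These groups did not overlap, but the share of all genes without overlap was not computed there. Pvr, a ligand of TIGIT, stood at 0.31, 0.351 and 0.15 per 10000 after rhabdomyolysis, against 0.057, 0.0634 and 0.0745 in controls (2.02, adjusted p = 0.0016). Cd86, a ligand of CD28 and CTLA-4, changed by 0.76 (adjusted p = 0.0307) and Lgals9 by 0.72 (adjusted p = 0.0257), each lost in 5 of 14 alternatives, among them those without rhabdomyolysis library 1 or 2 and without control library 1 or 2. In mononuclear phagocytes, where 64.7% of genes were called and different clusters held the class in the 2 groups, 9 ligands were tested, 6 rose and 3 fell. Cd80 (2.77), Tnfsf14 (2.22) and Tnfsf9 (2.02) rose there, and the ICOS ligand gene Icosl changed by -2.69. In B cells, where 4.0% of genes were called, 6 ligands were tested, 0 rose and 1 fell, Cd40 (-1.16, adjusted p = 0.0311). Tnfsf4 and Tnfsf18, the ligands of OX40 and GITR, were at or near 0 in these 3 populations.

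The genes most like each receptor were taken by Pearson's r of log2 levels over 50 sums of cells by population and library, among 8883 genes. These sums share libraries and cell types, so r is a description without a test. Ctla4 and Tnfrsf4 were most like each other among the 8 (r = 0.851), and Nt5e (0.791) and Sdcbp2 (0.777) came next for Ctla4. For Tnfrsf4 the other 2 were A630023P12Rik (0.865) and Sdcbp2 (0.835). Tnfrsf9 was most like Crem (0.787), Ctla2a (0.773) and Ctla2b (0.772), of which Ctla2a and Ctla2b are near-identical copies whose reads may be split. Genes most like Pdcd1 included Krt83 (0.806) and Tnfaip3 (0.783), an NF-kB-induced inhibitor. Icos was most like Rora (0.904), Camk4 (0.895) and Gata3 (0.888), Tnfrsf18 like Ndfip1 (0.88), Pkp3 (0.852) and Skap1 (0.85), and Cd28 like the T cell genes Cd247 (0.974), Lck (0.949) and Ms4a4b (0.937). Tigit, with 14 UMIs in T and NK cells together, was most like Zdhhc15 (0.66), Cdon (0.597) and Dipk1b (0.566).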

How the data were processed

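The authors deposited unfiltered UMI count matrices made with Cell Ranger 4, per the matrix header, on mm10, per the submitters' processing notes, with 32285 genes and 6 antibody tags. Barcodes with at least 500 UMIs, 200 genes and at most 15% mitochondrial UMIs were tested against the free RNA of barcodes with at most 100 UMIs (10000 draws, adjusted p at most 0.001), and simulated-doublet neighbours were removed at 0.8% per 1000 cells. Cells were clustered jointly without batch correction (scanpy 1.11.5, leidenalg 0.10.2, 2000 variable genes without the 8 receptor genes, 30 components, 20 neighbours, resolution 1) and named from fixed markers. The naive T cell cluster kept its T cell name although Ccr7, a marker of migratory dendritic cells, led it, a rule set after it was seen. The receptor genes and all gene lists were chosen with earlier results of these data known.

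Counts were summed per population and library, at least 10 cells each, and fitted with edgeR 4.0.16 (R 4.3.3; quasi-likelihood test, TMM, filterByExpr, Benjamini-Hochberg over all genes tested). SE is the log2 change over the square root of F, and levels are UMIs per 10000 of the population. Group differences between populations were fitted with the library as a block. DESeq2 1.42.0, library totals, no filter, each library left out and other cell definitions were alternatives. The fit was tested on simulated counts with known changes. Named genes are the 8 receptors, up to 4 called genes per list and population with the largest change, and the 3 most alike genes per receptor, by r of log2(UMIs per 10000 + 0.1). Some genes that this rule names are not reported here. The subset levels were weighted by control shares of UMIs, without both-positive T cells. The difference in means was split by averaging over the 2 groups' shares of UMIs and levels. Intervals are at 95% and a count of 0 allows 3 counts.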

Additional observations from a re-analysis of the deposited data

Results flagged for a closer look

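Differences of 2 kinds between populations passed a test of the difference itself. The change in NK cells was lower than that in T cells, with a log2 difference of -3.29 for Tnfrsf9 (edgeR adjusted p = 2.0e-05), -2.36 for Icos (adjusted p = 0.0227) and -1.29 for Cd28 (adjusted p = 0.0418). In that comparison 1.47% of genes were called. The call on Tnfrsf9 was kept in 8 of 8 alternatives, that on Icos was lost in 2 of 8 and that on Cd28 in 6 of 8. For Tnfrsf9, all 3 rhabdomyolysis libraries lay above the controls in T cells, and 1 rhabdomyolysis library was at 0 in NK cells. NK cells were mostly in different clusters in the 2 groups, and the part of this in the differences was not tested.

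The change in group 2 innate lymphoid cells was higher than that in T cells by a log2 difference of 3.7 for Pdcd1 (edgeR adjusted p = 0.0016) and 1.51 for Tnfrsf18 (adjusted p = 0.0032), where 3.5% of genes were called. For Tnfrsf9 the fitted log2 difference was 7.65 (adjusted p = 0.0109), a size set in part by the prior count since all control libraries of innate lymphoid cells were at 0. All 3 rhabdomyolysis libraries lay above all 3 control libraries for each of these genes in innate lymphoid cells. This comparison was added after the values had been seen.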

How the results depend on the processing

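Of the results tested for single genes, 1288 values under alternatives kept direction and call, 52 lost the call, 25 gained it and 21 reversed; the cause was not tested in any of them, apart from the smaller samples of leave-one-out fits. Counts of called genes moved as follows, besides the leave-one-out fits given below. The marker gate gave 521 in T cells and 487 without Foxp3 cells. No filter gave 89 in Foxp3, 181 in CD4 and 347 in CD8 T cells, 347 in B cells and 405 in group 2 innate lymphoid cells. Without the naive cluster the counts were 9 in Foxp3 and 138 in CD8 T cells, and the wider regulatory gate gave 21. Resolution 2 gave 58 in CD4 and 256 in double-negative T cells and 33 for Foxp3 against CD4 cells, and surface tags gave 404 and 289. DESeq2 gave 79 in NK cells.

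With the replicate number as a block, 465 genes were called in T cells without Foxp3 cells, 35 in CD4 T cells and 56 in NK cells, and the shares of Foxp3 and CD4 T cells changed by 1.23 and -0.866 (adjusted p = 0.0643 each). Deviations of same-numbered libraries correlated at 0.07, 0.0211 and 0.0273, too little to pair them, although each library correlated best with its own number, a hint from the data and not the design.

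The share of Foxp3 T cells changed by 0.675 at resolution 2 and 1.22 by tags, without a call. That of CD4 T cells changed by -0.896 without the naive cluster, -0.315 by tags and -0.619 after thinning (edgeR adjusted p = 0.559), each without a call. The CD8 share turned to -0.341 at resolution 2 and -0.257 after thinning. The double-negative share was -0.00612 without the free RNA test, 0.598 at resolution 2 (called) and -0.256 by tags. The both-positive share was -4.5 at resolution 2 (called) and 0.612 by tags. Standardised Cd28 differed by -0.0769 under the marker gate.

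Reversed values concerned genes without a call. In Foxp3 T cells Icos was 0.0802 without the naive cluster and 0.127 with the wider gate, and Tnfrsf18 was -0.28 without a filter, -0.589 without the naive cluster and -0.66 without rhabdomyolysis replicate 1. In CD4 T cells Cd28 was 0.116 by tags and 0.209 at 4 cells. In NK cells library totals gave -0.000939 for Tnfrsf9 and -0.0508 for Tnfrsf18, while Tnfrsf9 was -0.314 without rhabdomyolysis replicate 3 and -0.0901 without control replicate 2, and Tnfrsf18 was -0.0761 without rhabdomyolysis replicate 1 and -0.0808 without control replicate 3. Without rhabdomyolysis replicate 3, Tnfrsf18 was -0.0899 in T cells without Foxp3 cells, -1.23 in CD4 and -0.311 in double-negative T cells and 0.456 for CD8 against CD4, and Cd28 was -0.0596 in double-negative T cells. Without rhabdomyolysis replicate 2, Cd28 was -0.118 in CD8 T cells and -0.187 for CD8 against CD4. Without rhabdomyolysis replicate 1, Cd28 was -0.337 for innate lymphoid against T cells.

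Leaving out each library in turn gave 477 (without control replicate 2) to 793 called genes in T cells, 420 (without control replicate 2) to 720 without Foxp3 cells, 8 (without control replicate 2) to 54 in Foxp3, 22 (without control replicate 1) to 193 (without rhabdomyolysis replicate 3) in CD4, 123 to 188 in CD8 and 307 to 449 in double-negative T cells. It gave 30 (without control replicate 2) to 253 (without rhabdomyolysis replicate 2) in NK cells, 5855 to 6810 in mononuclear phagocytes, 901 to 1705 in dendritic cells, 93 to 331 in B cells and 139 to 262 in innate lymphoid cells. The comparisons of changes gave 45 to 95 for NK, 4 to 17 for CD8 against CD4, 28 to 100 for Foxp3 against CD4 and 62 to 116 for innate lymphoid cells. Shares ranged over 0.748 to 1.53 for Foxp3, -1.01 to -0.654 for CD4, 0.03 to 0.448 for CD8, -0.0513 to 0.114 for double-negative (-0.00119 in another) and -4.6 to -3.72 for both-positive cells. Standardised differences ranged over 0.759 to 1.59 for Ctla4, 1.24 to 2.14 for Tnfrsf4, 0.513 to 0.84 for Tnfrsf9, 0.0564 to 1.69 for Tnfrsf18, 0.181 to 0.748 for Icos, 0.434 to 0.59 for Pdcd1, 0.251 to 0.398 for Cd28 and 0.00819 to 0.0276 for Tigit. Leave-one-out ranges of the reversed genes ended at 0.957 for Tnfrsf18 in T cells without Foxp3 cells, 1.17, 1.58 and 0.825 for it in Foxp3, CD4 and double-negative T cells, 0.71 and 0.437 for Cd28 in CD8 and double-negative T cells, and 0.552 and 0.317 for Tnfrsf9 and Tnfrsf18 in NK cells. For CD8 against CD4 they ended at 1.82 for Cd28 and -0.593 for Tnfrsf18, and for Cd28 in innate lymphoid against T cells at 5.83.

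Fits of CD4 T cells at 20 cells per library, without the free RNA test, by marker gate or without the naive cluster, of Foxp3 T cells at 10 or 20 cells or by marker gate, and of innate lymphoid cells at 20 cells gave no value, since too few libraries held enough cells. Depth limits Tigit throughout and Ctla4, Tnfrsf4 and Tnfrsf9 in CD8 T cells and Ctla4, Tnfrsf4 and Pdcd1 in NK cells.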
